A study of Rattus norvegicus with 3 samples.

Results

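The endoplasmic reticulum stress genes described here are Hspa5, Hsp90b1, Hyou1, Pdia4, Dnajb9, Sdf2l1, Herpud1, Atf4, Xbp1 and Ddit3. The names were chosen with earlier results of these data known. Probe sets were then selected by symbol: every probe set whose only symbol in the platform annotation is one of these names was taken, which gave 11 probe sets for 10 genes, of 14218 named genes on the array. Hyou1 has 2 probe sets and each of the others has 1. The study put donor kidneys from male Wistar rats of 370 to 508 g on 3 Affymetrix arrays; no age is given in the labels. The heparin array holds kidneys whose recipients were infused with heparin at 100 U/ml/h, and the peptide array those given "peptide 2" at 0.5 mg/ml, which the series describes as built on the part of the chemokine CCL5 that binds heparin. The control array holds kidneys of recipients infused with normal saline at 1 ml/h, and heparin was kept out of the model as an anticoagulant. All groups shared the same injury: 20 min of warm ischaemia, 17 ± 0.7 h of cold storage in University of Wisconsin solution, and 5 h 43 min ± 21 min of blood perfusion from the femoral artery of a live recipient (errors of unstated kind). Each array carried RNA pooled from 3 of the 7 kidneys of its group, those of best RNA quality, and no kidney without ischaemia, storage and reperfusion was among the arrays. With 1 array per group no difference has a replicate check, and none was tested.

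The endoplasmic reticulum folds secreted and membrane proteins. When unfolded protein builds up, the sensors IRE1, PERK and ATF6 start the unfolded protein response: IRE1 splices the Xbp1 mRNA, PERK slows translation and thereby favours ATF4, and ATF6 is cut to release a transcription factor. These factors raise the chaperones, folding enzymes and degradation machinery of the organelle, and prolonged signalling through ATF4 induces CHOP, the product of Ddit3, which favours cell death. Ischaemia and reperfusion of the kidney are known to switch on this response, mainly studied in tubule cells.

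Much of the response acts through short promoter elements, so the promoters are shown first. RefSeq windows (GRCr8), from 250 bases before to 50 bases after an annotated transcription start, were found for all 10 genes, with 2 overlapping windows for Hyou1. The ER stress element, CCAAT followed 9 bases later by CCACG, was present on either strand in the windows of Hspa5, Hsp90b1 and Xbp1, 3 of 10 genes, against 0.0765% of 27457 genes in the table. A second form, the ER stress element II (ATTGG, 1 base, CCACG), was present in Hyou1 and Herpud1, against 0.0619% of all genes. The unfolded protein response element TGACGTGG was present in Hyou1 alone among the 10 genes, against 0.681% of all genes. With 1 mismatch allowed in the 10 fixed bases, the ER stress element was found in 7 of the 10 genes, against 1.57% of all genes. Dnajb9, Sdf2l1 and Atf4 had no match to any of these forms in the windows searched, which says only that the letters are not there. These genes are usually grouped by such elements, so their higher shares are not a finding of these data. The following stretches show some of the matches. Capitals mark the fixed bases of the element, and each is read on the strand named.
Hspa5, chr3:38452961-38453003, plus strand: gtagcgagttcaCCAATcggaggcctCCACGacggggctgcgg
Hsp90b1, chr7:23012335-23012377, plus strand: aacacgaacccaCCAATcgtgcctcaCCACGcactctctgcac
Xbp1, chr14:84604546-84604588, plus strand: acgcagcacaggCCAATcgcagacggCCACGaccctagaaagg
Pdia4, chr4:78153262-78153304, plus strand: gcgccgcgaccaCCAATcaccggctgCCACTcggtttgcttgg
Hyou1, chr8:53602782-53602816, minus strand: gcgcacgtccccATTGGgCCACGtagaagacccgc
Herpud1, chr19:10614809-10614843, minus strand: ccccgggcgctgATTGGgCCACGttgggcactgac
Hyou1, chr8:53602679-53602710, plus strand: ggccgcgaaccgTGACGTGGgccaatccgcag

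The first 3 stretches hold the complete ER stress element, ending at position -25 from the start of Hspa5 and at -47 from that of Xbp1. Hsp90b1 has 2 complete copies, and the one shown lies nearest to its start, on the strand opposite to the gene. The Pdia4 stretch, also opposite to its gene, carries the substitution G19T relative to the element, counted from 1 at the first base of CCAAT, with the element's base first. The Hyou1 and Herpud1 stretches on the minus strands share the 11 letters of the ER stress element II. Hyou1 holds this element at 2 places, and the copy farther from the start overlaps the unfolded protein response element in the last stretch, so these are not independent matches. A core of the element bound by C/EBP and ATF proteins, TGATGNAA, was present only in Herpud1 among the 10 genes, against 4.16% of all genes. The windows of Dnajb9 and Herpud1, and the second window of Hyou1, belong to starts that lie inside the annotated gene. Other starts of Dnajb9 and Herpud1 were not analysed here.

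**Figure D1:**
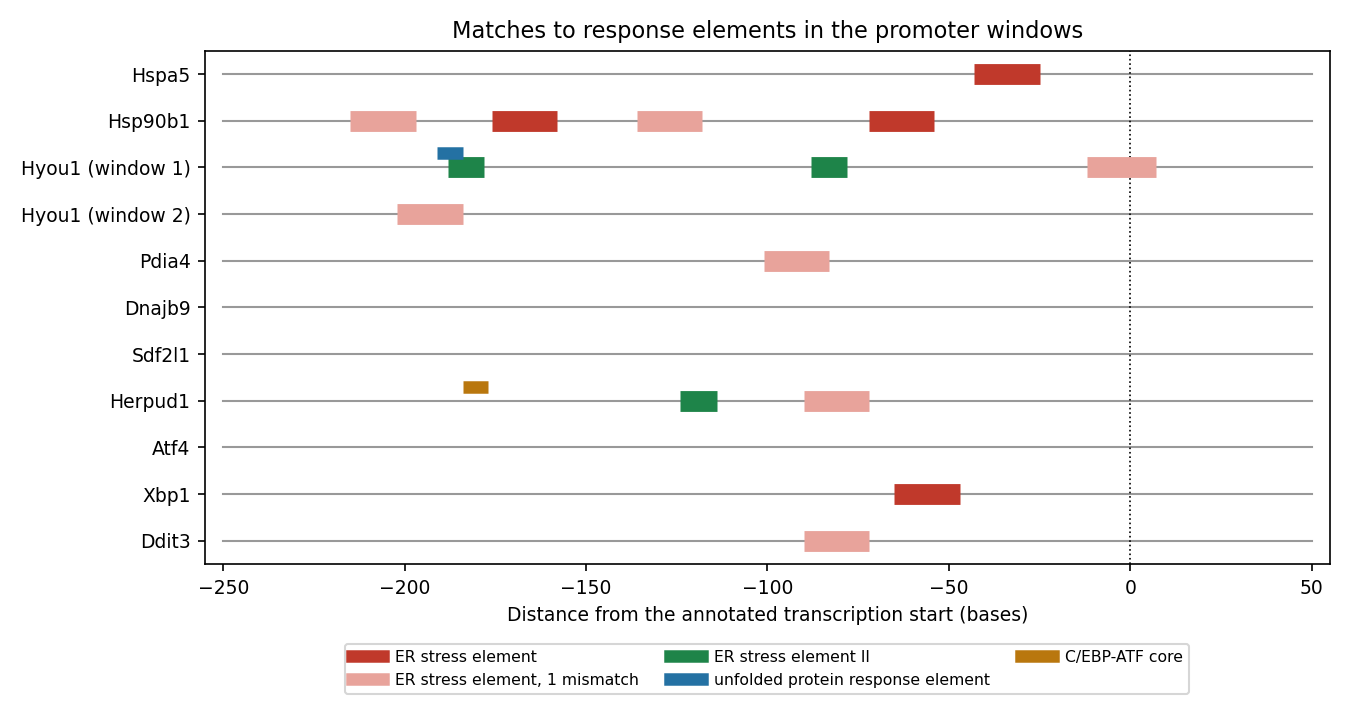
Each row is one promoter window, from 250 bases before to 50 bases after the annotated start (x axis, bases), and coloured bars mark matches on either strand. Complete ER stress elements appear in Hspa5, Hsp90b1 and Xbp1, and the second form in Hyou1 (2 places) and Herpud1 (1 place). The 1-mismatch match across the start of the first Hyou1 window is the same stretch seen upstream in the second.

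In heparin against control, which asks how the treated pool differed from saline, the endoplasmic reticulum genes were lower as a group. Of the 10 genes, 9 had a lower value on the heparin array than on the control array, Ddit3 had a higher one and 0 were identical. Over all measured genes 44.2% were lower, 25.8% higher and 30.1% identical on the 2 arrays, so part of the gap to 44.2% lies in the identical genes. With each array centred on its median 8 of the 10 genes were lower, because Xbp1 turned to 0.03 higher. Centring also moved the median over all genes to 0.06, so Xbp1 still lay below it. Without centring, the median difference of the 10 genes was -0.41 on the log2 scale, beside 0.00 over all 9236 genes measured in this comparison (probe set at or above the array median on both arrays). At least 1.5-fold lower were 2 of the 10 genes, Hyou1 and Pdia4, against 3.37% of all genes, and both were also at least 2-fold lower, against 0.747%, though Pdia4 fell short of 2-fold after quantile normalization (-0.98), centring (-0.97) and with 32 added to the unlogged values (-0.95). On the higher side 0 of 10 reached 1.5-fold or 2-fold, against 3.04% and 1.06% of all genes. At a looser threshold, 6 of 10 were lower by at least 20%, against 10.6% of all genes, and 0 of 10 higher by at least 25%, against 6.41%. The other 4 of these 6 were Dnajb9, Sdf2l1, Herpud1 and Atf4, and 5 were left without Atf4 after quantile normalization or centring. Over all genes 311 were at least 1.5-fold lower and 281 higher, and this split was 244 lower and 336 higher with each array centred.

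**Figure D2:**
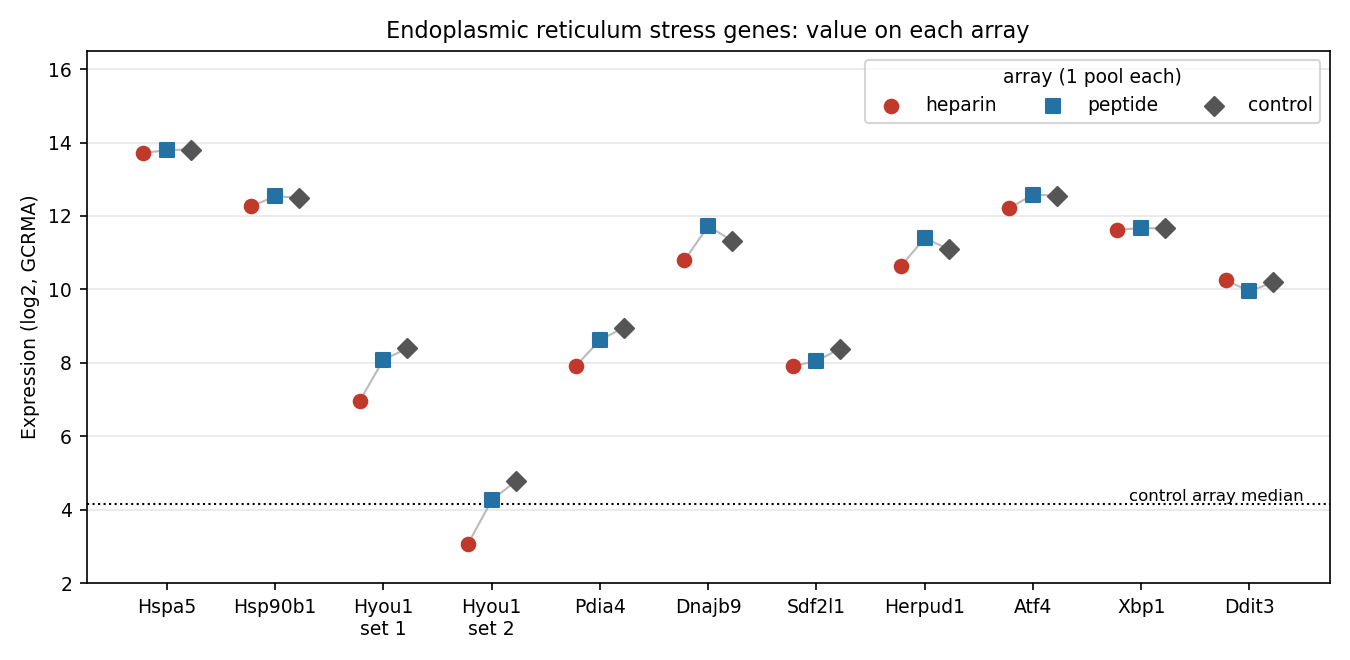
Each gene or probe set (x axis) has its log2 GCRMA value (y axis) on the heparin, peptide and control arrays, 1 point per array and hence without error bars. The heparin point is the lowest of the 3 for every gene but Ddit3 (and Xbp1 once each array is centred). Both Hyou1 sets fall in the same order, and the second lies near or below the array median (dotted line).

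The largest gap was that of Hyou1, the lumenal relative of the heat shock proteins that renews the nucleotide on BiP. Its brighter probe set read 6.96 in heparin, 8.09 in peptide and 8.39 in control. It was 2.69-fold lower in heparin than in control, a log2 difference of -1.43, and only 21 of the 9236 genes had a more negative difference. The other probe set kept the same order, with 3.07 in heparin, 4.26 in peptide and 4.78 in control. Its heparin value lay below the array median of 4.16, so no fold is given for it. On both sets of probes heparin was the lowest array, and peptide lay nearer to control than to heparin.

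Pdia4, a disulphide isomerase that helps secreted proteins form their bonds, read 7.93 in heparin, 8.62 in peptide and 8.96 in control. It was 2.05-fold lower in heparin than in control, and 61 genes had a more negative difference. Sdf2l1, which works with BiP and its J-domain partners, read 7.91 in heparin, 8.05 in peptide and 8.39 in control. Here both treated arrays lay below control, heparin by 1.39-fold and peptide by 1.26-fold.

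Dnajb9, a J-domain partner of BiP that also restrains IRE1, read 10.79 in heparin, 11.73 in peptide and 11.32 in control. Herpud1, a membrane protein that organises the degradation of misfolded proteins, read 10.63 in heparin, 11.40 in peptide and 11.10 in control. For both genes the treated arrays lay on either side of control. Heparin was lower by 1.45-fold for Dnajb9 and by 1.38-fold for Herpud1, and peptide was higher by 1.33-fold and 1.23-fold.

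The chaperones Hspa5 and Hsp90b1 had smaller differences. Hspa5, which encodes the master chaperone BiP, read 13.71 in heparin, 13.80 in peptide and 13.81 in control. Hsp90b1, the HSP90 of the organelle, read 12.27 in heparin, 12.54 in peptide and 12.50 in control. Heparin against control came to 1.07-fold lower for Hspa5 and 1.17-fold lower for Hsp90b1, and both genes carry complete ER stress elements in the stretches above. All 6 lumenal chaperones and folding factors (these 2 with Hyou1, Pdia4, Dnajb9 and Sdf2l1) were lower in heparin than in control, with a median of -0.51.

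The transcription factors of the response showed small differences. Atf4, the factor favoured when PERK is active, read 12.21 in heparin, 12.58 in peptide and 12.56 in control. Xbp1 read 11.63 in heparin, 11.67 in peptide and 11.66 in control, the narrowest range of the 10 genes. The sources used here do not say whether its probes tell the spliced from the unspliced mRNA. Ddit3 was the exception in direction: it read 10.25 in heparin, 9.95 in peptide and 10.19 in control, highest in heparin and lowest in peptide. Heparin exceeded control by only 1.04-fold for Ddit3, while peptide was 1.18-fold lower than control. The activity of ATF4 and XBP1 is set largely after transcription, by translation and splicing, which these arrays do not measure.

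**Figure D3:**
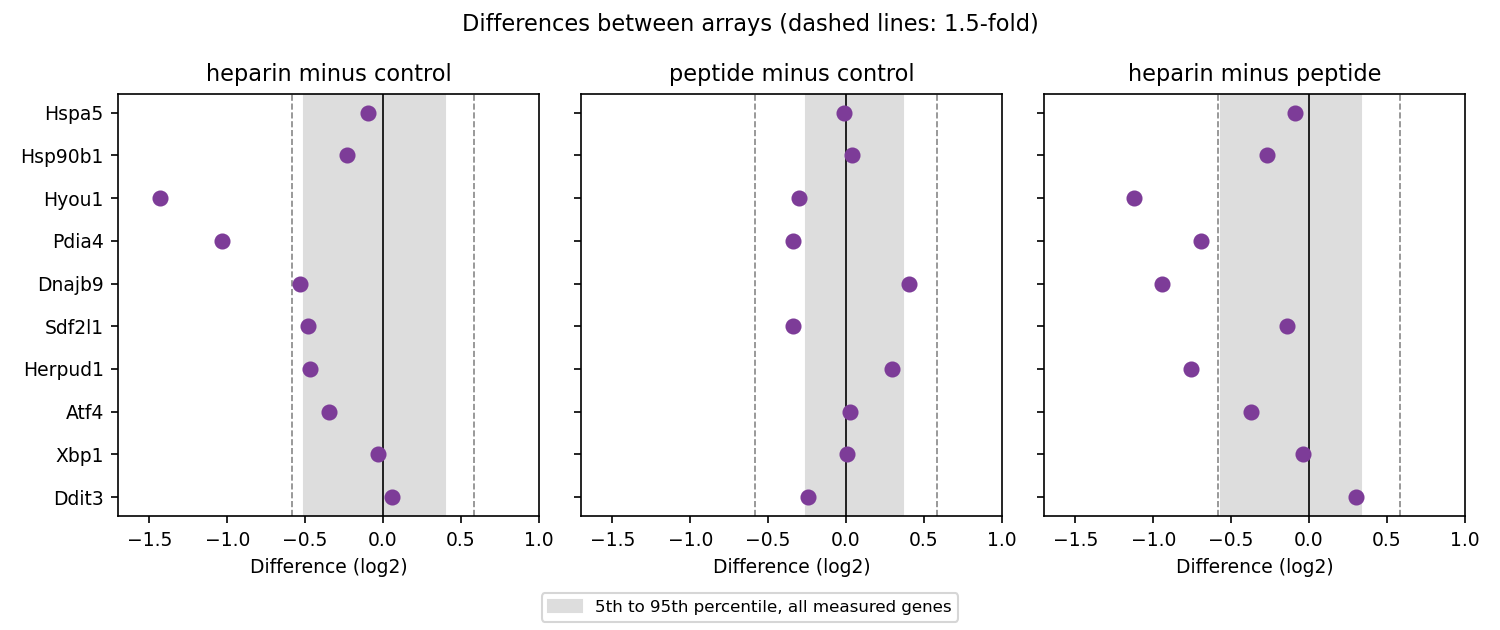
Log2 differences of the 10 genes (points, 1 array against 1 array) in the 3 comparisons, with the 5th to 95th percentile of all measured genes in grey and 1.5-fold as dashed lines. Hyou1 and Pdia4 lie beyond 1.5-fold in heparin minus control, 0 genes do in peptide minus control, and Hyou1, Dnajb9, Herpud1 and Pdia4 do in heparin minus peptide.

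In peptide against control the 10 genes showed no common direction. Higher were Dnajb9, Herpud1, Hsp90b1, Atf4 and Xbp1, and lower were Pdia4, Sdf2l1, Hyou1, Ddit3 and Hspa5, so 5 of 10 were lower, against 28.5% of 9268 genes. Over all genes 2967 were higher and 3659 identical. After quantile normalization or centring Xbp1 moved to the lower side, at -0.03 and -0.01, where the median over all genes was -0.008 and -0.02. As deposited, the median of the 10 genes was -0.0024, beside 0.00 over all genes. None of the 10 reached 1.5-fold in either direction (0 of 10, against 0.917% of all genes lower and 2.11% higher), nor 2-fold, against 0.119% lower and 0.723% higher. At the looser threshold, Dnajb9 was higher by at least 25%, against 6.14% of all genes, and Pdia4 and Sdf2l1 were lower by at least 20%, against 3.36%. Both of these missed that threshold with 32 added (-0.32 for Pdia4 and -0.30 for Sdf2l1), and Hyou1 joined them with the mean (-0.41) or the lowest (-0.52) of its probe sets.

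Set against each other, heparin and peptide differed in 9 of 10 genes toward lower values in heparin, against 43.7% of 9240 genes, and Ddit3 was higher, as were 26.8% of all genes. The values were identical for 29.5% of all genes and for 0 of the 10. Centring the arrays left 8 of 10 lower, because Xbp1 turned to 0.04 higher, while the median over all genes moved to 0.08. Without centring the median of the 10 genes was -0.32. At least 1.5-fold lower in heparin were Hyou1 (2.18-fold), Dnajb9 (1.92-fold), Herpud1 (1.69-fold) and Pdia4 (1.62-fold), 4 of 10 against 4.57% of all genes. Hyou1 alone was also at least 2-fold lower, against 0.844%, and missed 2-fold with 32 added (-0.96). With Atf4, 5 of 10 were lower by at least 20%, against 12.9%, and 4 without Atf4 after centring. On the higher side 0 of 10 reached 25%, 1.5-fold or 2-fold, against 5.43%, 1.62% and 0.281% of all genes, but Ddit3 passed 25% after quantile normalization or centring. For Dnajb9 and Herpud1 this gap combines a lower heparin value with a higher peptide value, and for Hyou1 and Pdia4 it is smaller than the gap between heparin and control. Over all genes 422 were at least 1.5-fold lower and 150 higher in heparin, and the split was 293 lower and 209 higher with each array centred. The comparisons share arrays, so the same heparin value enters this gap and the one against control.

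Over the 3 arrays the heparin value was the lowest for 9 of the 10 genes, against 35.1% of the 9231 genes measured on all 3, and Xbp1 left this order once each array was centred. Many genes have equal values on different arrays, which the 10 genes do not. Among the 4221 genes with 3 different values heparin was lowest for 54.5%. Peptide was highest for 5 of the 10 genes, against 41.7% of those 4221 genes. Xbp1, among these 5, fell below control in peptide after quantile normalization or centring. Mean signal and difference were correlated across the 10 genes, which share the same arrays and for which this is a description: Pearson r was 0.70 (Spearman rho 0.59) in heparin minus control and 0.64 (0.58) in peptide minus control. In heparin minus peptide it was 0.34 (0.33), where the brighter sets of Dnajb9 and Herpud1 had the largest gaps after Hyou1. Signal depends on the probes as well as on the transcript. Among all genes with a mean log2 signal from 6.5 to 8.5, where Hyou1 and Sdf2l1 lie, 4.43% were at least 1.5-fold lower in heparin than in control. The share was 2.75% in the next brighter band, where Pdia4 and Ddit3 lie, and 1.62% in the brightest band of 1173 genes, where the other 6 genes lie and 0 of them reached 1.5-fold. In heparin against peptide that brightest band held 3.58% of genes at least 1.5-fold lower, and Dnajb9 and Herpud1 were 2 of its 6 members that reached this.

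**Figure D4:**
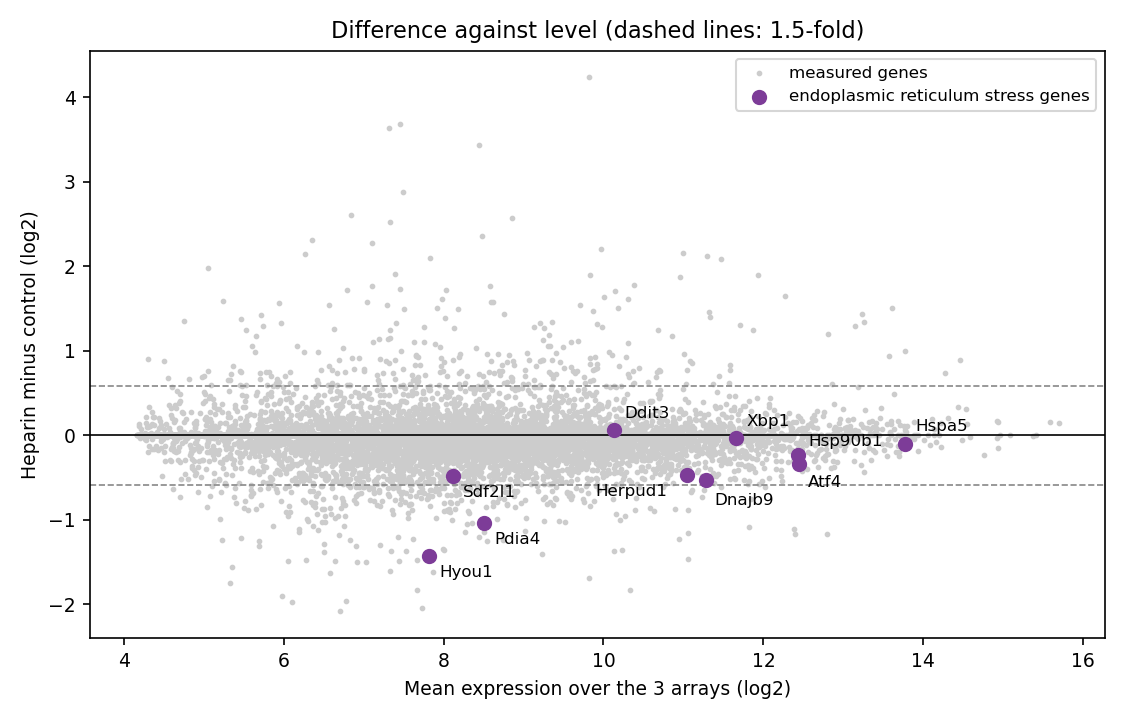
Each grey point is a measured gene, with its mean log2 signal over the 3 arrays (x axis) and its heparin minus control difference (y axis, log2). The 10 endoplasmic reticulum stress genes (purple) run from Hyou1 and Pdia4, below the 1.5-fold line, to Xbp1 and Ddit3 near 0.

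Several other measurements moved with the heparin array and stand beside these values. For beta-actin, the 3' probe set exceeded the 5' one by 2.95 in heparin, 2.34 in peptide and 2.33 in control, where a wider gap is read as lower RNA integrity. Its middle probe set had a heparin minus control difference of -0.52. The same gap of GAPDH was 0.32 in heparin, 0.37 in peptide and 0.36 in control. That of hexokinase was 2.18 in heparin, 2.28 in peptide and 2.18 in control, so only beta-actin had a wider gap in heparin. The part of RNA quality in the lower heparin values was not tested. Plasma cells are rich in this organelle: of 6 plasma and B cell markers on the array, 2 lay above the median on all arrays, and Mzb1, Cd79b, Pou2af1 and Tnfrsf17 read 2.18 to 2.35 on every array, at or near the lowest value of 2.18. Jchain, the joining chain of secreted immunoglobulins, had the largest difference, with 6.72 in heparin, 5.14 in peptide and 5.30 in control by the brighter of its 2 probe sets. Sdc1 read 8.52 in heparin, 8.54 in peptide and 8.52 in control. The summed log2 value of the 6 markers was 24.12 in heparin, 22.55 in peptide and 22.70 in control, and its part was not tested. Platelet and red cell markers were lower in heparin than in control: the platelet gene Pf4 read 9.04 in heparin, 8.90 in peptide and 9.80 in control, and Alas2 of red cell precursors 8.37 in heparin, 9.17 in peptide and 9.51 in control. Podxl of podocytes read 10.16 in heparin, 9.34 in peptide and 9.42 in control, and Nphs1 of podocytes 8.42, 8.34 and 8.38. Summed over their lists, the 3 platelet markers read 17.08 in heparin, 17.67 in peptide and 18.77 in control, the 2 red cell markers 23.00, 23.97 and 24.37, and the 2 podocyte markers 18.58, 17.68 and 17.80 in the same order of arrays. Gp9 of platelets was at the lowest value on every array. The neutrophil gene S100a8 had the order of Dnajb9 and Herpud1, with 12.01 in heparin, 12.51 in peptide and 12.13 in control, and S100a9 had it too, with 12.84, 13.16 and 12.92. Csf3r, also of neutrophils, did not, with 8.45 in heparin, 8.37 in peptide and 8.45 in control. Kdr of endothelium read 10.59 in heparin, 9.71 in peptide and 10.27 in control, while Pecam1 of endothelium read 8.65 on every array. Cd68 of macrophages was 0.48 higher in heparin than in control. The other macrophage markers did not follow it: Csf1r differed by 0.02, Adgre1 by -0.14, and Cd163 was at the lowest value on every array. The collecting duct markers Aqp2 and Aqp3 were 0.26 and 0.29 higher in heparin than in control. The part of these markers was not tested either. The kidney label was borne out by its tubule markers. Umod of the thick ascending limb read 15.02 in heparin, 14.88 in peptide and 14.85 in control. Slc12a1 of the same segment read 12.41 in heparin, 12.52 in peptide and 12.52 in control. The 5 proximal tubule markers (Slc34a1, Lrp2, Cubn, Slc5a2, Slc22a6) had a median heparin minus control difference of 0.00, with a range of -0.52 to 0.33. In such whole-tissue pools, fewer cells of a type and less RNA per cell cannot be told apart.

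In heparin against control, lists of the wider pathway had medians nearer 0 than the 10 genes. In peptide against control they did not all do so, with 0.06 for targets of ATF4 and CHOP and -0.04 for heat shock proteins, beside -0.0024 for the 10 genes. Of 22 other lumenal chaperones and foldases, all measured, 12 were lower, 4 higher and 6 identical in heparin against control. Over all genes 44.2% were lower and 25.8% higher. The median of the list was -0.01 and turned to 0.05 with the arrays centred, when that of all genes was 0.06. Creld2, a small folding factor induced by this stress, was the 1 gene of the list at least 1.5-fold lower by the probe set that stood for it, against 3.37% of all genes. It read 8.71 in heparin, 8.87 in peptide and 9.47 in control. Like Sdf2l1, it lay below control in both treated pools, with log2 differences of -0.76 in heparin and -0.60 in peptide. For Erp44 the set that stood for the gene differed by -0.24 in heparin against control, but a dimmer set, with 9.76 in heparin and 10.37 in control, differed by -0.61. Fkbp2, a prolyl isomerase of the organelle, read 10.28 in heparin, 10.47 in peptide and 10.66 in control, and a dimmer set of it had a heparin minus control difference of only -0.07. Nucb2, a calcium-binding protein, went the other way by 0.34 in heparin. Calreticulin (Calr), a lectin chaperone of the lumen, read 11.61 in heparin, 11.64 in peptide and 11.64 in control.

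The degradation machinery around Herpud1 held a few genes with the same order of arrays. Of 13 measured genes 6 were lower, 3 higher and 4 identical in heparin against control, with a median of 0.00. These counts lay near the shares over all genes: 44.2% lower, 25.8% higher and 30.1% identical. Edem2, which helps pick misfolded glycoproteins for disposal, read 5.37 in heparin, 6.59 in peptide and 6.27 in control, 1.87-fold lower in heparin than in control. Edem1, of the same family, read 10.46 in heparin, 11.14 in peptide and 10.85 in control. Its other 2 probe sets had heparin minus control differences of -0.80 and -0.74, so all 3 sets of Edem1 had their lowest value in heparin. Syvn1, the ubiquitin ligase that Herpud1 works with, read 7.93 in heparin, 8.46 in peptide and 8.30 in control. These 3 genes, picked by the size of their differences within the list, shared the order of Dnajb9 and Herpud1, with heparin lowest and peptide highest, except for 1 dimmer set of Edem1, where peptide (8.69) lay under control (8.77).

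Targets of ATF4 and CHOP divided. Among 16 measured genes 9 were lower, 5 higher and 2 identical in heparin against control, where 44.2% of all genes were lower and 25.8% higher. The median of these targets was -0.01 and turned to 0.05 with the arrays centred, when that of all genes was 0.06. Trib3, a pseudokinase induced by both factors, read 6.27 in heparin, 6.93 in peptide and 7.01 in control, but its other 2 probe sets had a difference of 0.00. Nupr1, a stress-induced transcriptional regulator, was 0.39 higher in heparin. Cebpb, a partner of CHOP, read 10.54 in heparin, 11.57 in peptide and 10.92 in control. It was the 1 target at least 1.5-fold apart in peptide against control, 0.65 higher, where 2.11% of all genes were that much higher. Its heparin minus peptide difference was -1.03. Phgdh, which opens serine synthesis, and Atf3 followed this order, with differences of -0.61 and -0.51 between heparin and peptide.

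Among the sensors and their regulators 0 of 12 measured genes reached 1.5-fold in any comparison. Over all genes 3.37% were lower and 3.04% higher by that much in heparin against control. The shares were 0.917% and 2.11% in peptide against control, and 4.57% and 1.62% in heparin against peptide. With shares this small, 0 of 12 does not set the list apart. Eif2ak3, which encodes PERK, read 7.14 in heparin, 7.57 in peptide and 7.57 in control. Atf6 read 9.90 in heparin, 10.11 in peptide and 9.65 in control, and Ppp1r15a, which ends the PERK signal, 9.89 in heparin, 10.32 in peptide and 10.24 in control. The genes of the translocon, signal peptidase and glycosylation had a median of -0.10 over 21 measured genes in heparin against control. Of these, 15 were lower, against 44.2% of all genes. The largest difference in this list was that of Sec24d, a coat protein for export from the organelle, at -0.44. None of the 21 reached 1.5-fold by the set that stood for it, though a dim set of Ssr3, with 4.32 in heparin and 5.17 in control, differed by -0.85.

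The heat shock proteins of the cytosol and mitochondria, the closest related stress family, differed in the other direction more often than not. Of 14 measured genes 8 were higher, 4 lower and 2 identical in heparin against control, with a median of 0.04. Over all genes 25.8% were higher, 44.2% lower and 30.1% identical. Each gene was counted by 1 probe set: Dnajb1 by a set at 0.18, while its other set differed by -0.17. Dnaja1 counted as identical, while its other set differed by -0.17. Hspa8 and Hsp90aa1 were not matched on the array. Hsph1, the cytosolic counterpart of Hyou1, read 13.61 in heparin, 12.90 in peptide and 13.04 in control. It was 0.58 higher in heparin than in control, where Hyou1 differed by -1.43. The second Hsph1 probe set was 0.14 higher. Hspa9, the mitochondrial relative of Hspa5, had a heparin minus control difference of -0.40, but of its other 3 probe sets 1 differed by -0.65, 1 by 0.09 and 1 was at the lowest value on every array. The difference between the 2 families was not tested.

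**Figure D5:**
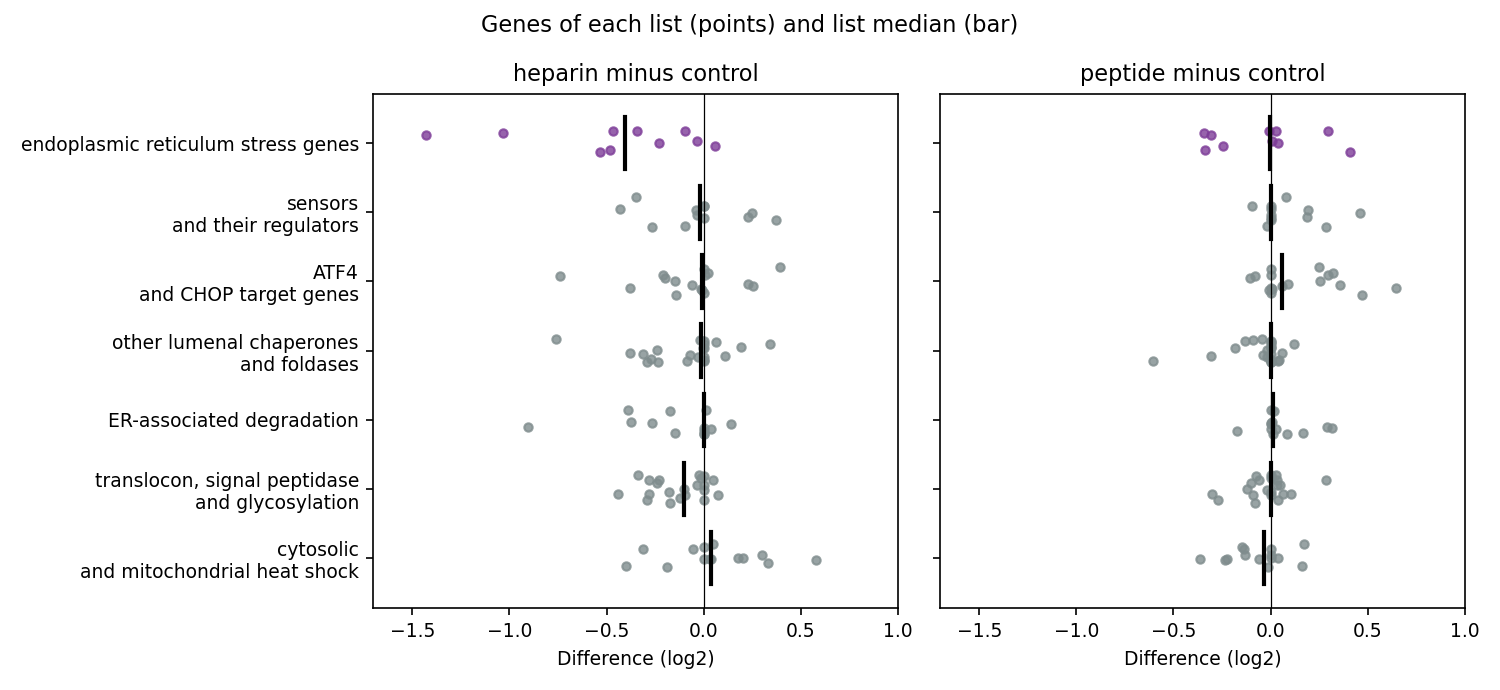
Log2 differences (x axis) of the measured genes of each list (points, spread vertically for visibility) with the list median (bar), for heparin minus control and peptide minus control. The bar of the 10 endoplasmic reticulum stress genes is at -0.41 in heparin minus control, and the bars of the other lists lie between -0.10 and 0.04.

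Genes with a pattern most like that of Hyou1, the gene with the widest range, were sought over 9231 genes by the distance in the heparin minus control and peptide minus control differences, which rest on 3 arrays. The nearest was Ppat, the entry enzyme of purine synthesis, at a distance of 0.07, with 6.13 in heparin, 7.32 in peptide and 7.63 in control. Tsku, a secreted proteoglycan, followed at 0.08, and the immediate early factor Fosb at 0.10. Utp18 and Plcxd2 were next, at 0.17 and 0.20. Only 2 genes lay within 0.1 of Hyou1, and Pdia4, Dnajb9 and the other members were not among the 5 nearest.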

How the data were processed

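The authors deposited log2 expression per probe set for each of 3 arrays. The submitters' processing notes name GCRMA without a version or settings, and the sources used here do not say how arrays were normalized to each other. Values were used as deposited. Arrays have no read depth; their number, 1 per group, limits precision. The platform annotation gave 1 symbol to 20832 of 31099 probe sets, several to 436 and none to 9831. A gene stood by its probe set with the highest mean, and was measured when this lay at or above the median on both arrays compared. Differences of log2 values were counted at 1.5- and 2-fold (and at 25% higher or 20% lower) and set beside the share of all measured genes, with no test, in Python 3.11.15 (pandas 2.3.3). The counting was tested on simulated data.

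Members, lists and comparisons were chosen with earlier results of these data known. Of 110 list names 103 matched by symbol, 2 by synonym and 5 not. Named genes are the members, up to 4 measured genes per list and comparison with the largest absolute difference, the 5 genes nearest to Hyou1 and cell type markers. Counts at the other thresholds under each setting were added after the data were seen. Calr, the probe sets of named genes and values added for contrast were chosen after their values were seen, as were the mismatch and second form of the promoter element. Sequences come from RefSeq (GRCr8). Proteins were not analysed here.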

Additional observations from a re-analysis of the deposited data

How the results depend on the processing

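Under 8 other settings (filters at the 40th and 60th percentile or none, quantile normalization, centring, 32 added to the unlogged values, the mean or the lowest measured probe set) the median of the 10 genes stayed between -0.41 and -0.34 in heparin against control, -0.038 and -0.0024 in peptide against control, and -0.32 and -0.24 in heparin against peptide. The numbers at least 1.5-fold lower stayed at 2, 0 and 4. At the looser threshold (25% higher or 20% lower), heparin against control gave 6 genes apart, all lower (5 after quantile normalization or centring), and peptide against control gave 3 apart, 2 of them lower (0 lower with 32 added, 3 with the mean or lowest probe set). At 2-fold, heparin against peptide gave 1 (0 with 32 added) and heparin against control 2 (1 after quantile normalization, centring or with 32 added). Hyou1 moved by over 0.1, to -1.23 (32 added) and -1.57 (mean of probe sets) in heparin against control. Of 408 recomputed differences and medians 16 changed sign, 4 of them those of Xbp1, none over 0.06 in size as first given. The median over all genes moved too. In heparin against control it was 0.03 after quantile normalization and 0.06 after centring, and in heparin against peptide 0.04 and 0.08. The translocon list's median of -0.12 between heparin and peptide became 0.00 with the lowest measured probe set. Allowing 1 mismatch raised the genes with an ER stress element from 3 to 7. With 32 added, all genes at least 1.5-fold lower numbered 200 in place of 311 (heparin against control), 47 in place of 85 (peptide against control) and 278 in place of 422 (heparin against peptide). At 2-fold lower they numbered 40 in place of 69 (heparin against control; 105 with the lowest measured probe set) and 40 in place of 78 (heparin against peptide), and genes at least 1.5-fold higher in heparin than in peptide 98 in place of 150 with the mean of probe sets. Genes at least 2-fold higher in heparin than in peptide numbered 13 to 49 in place of 26, and those 2-fold lower in peptide than in control 6 to 16 in place of 11. The causes were not tested. No paired analysis was possible because each group has 1 array. No replicate could be left out.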

Other observations

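Genes across the array whose promoter window holds the complete ER stress element were looked up after the members' values were seen. Of 21 such genes 14 were measured in heparin against control, 3 of them members. The other 11 had a median difference of 0.00, with 5 lower, 4 higher and 2 identical. Among these, 1 was at least 1.5-fold lower, Creld2, against 3.37% of all genes. The largest on the higher side was Ppm1l (0.56). Creld2, a folding factor, differed by -0.76. The other genes include the chaperones and foldases Calr, Canx, Dnajc3 and Ero1b, of which Ero1b lay farthest from control (0.19). Of the 17 genes with the second form of the element 9 were measured: 7 were lower in heparin than in control, 0 higher and 2 identical, with a median of -0.21. Without Hyou1 and Herpud1 the median of the remaining 7 was -0.01. Rcl1 (-0.42), Prkcz (-0.29) and Rnf151 (-0.21) were the lowest of these, and Dnajb11, a J-domain partner of BiP, differed by -0.0048. Of 75 measured genes with TGACGTGG 41 were lower and 12 higher in heparin, with a median of -0.04. Over all genes, 44.2% were lower and 25.8% higher.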
